A study of Homo sapiens with 6 samples.

Results

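The subject of this report is 10 keratin genes, KRT8, KRT18, KRT7, KRT19, KRT4, KRT15, KRT10, KRT80, KRT81 and KRT86, chosen by gene name from a deposited table of 60612 genes. They were picked from the keratin family with the raffinose comparison already known, so their difference between the groups is described here and supports nothing by itself. All 6 libraries came from PANC-1, an established cell line from a human pancreatic carcinoma. The raffinose group holds 3 libraries of cells given 50 µM D(+)-raffinose pentahydrate, a plant trisaccharide, for 24 h. The untreated group holds 3 libraries that their titles and source names give as PANC-1 cells alone, with no compound, vehicle or time, although a treatment text that names raffinose stands on all 6 samples. Both groups were grown in the same serum-containing medium per the labels, and a single cell line limits both to that line. The labels do not say whether replicates were grown apart. The p-values therefore speak of library-to-library spread alone, and that spread can be technical. Poly(A) RNA was sequenced, and the total deposited count per library ranged from 59723420 to 66063664.

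Keratins are the intermediate filament proteins of epithelial cells. An acidic type I keratin pairs with a neutral to basic type II keratin, and the pairs assemble into filaments that are anchored at desmosomes and hemidesmosomes and give the cell mechanical strength. Simple epithelia such as the pancreatic duct use KRT8 with KRT18, joined in ducts by KRT7 and KRT19, whereas stratified epithelia and hair use other pairs. Of the 10 genes, 4 encode type I keratins (KRT18, KRT19, KRT15 and KRT10) and 6 encode type II keratins (KRT8, KRT7, KRT4, KRT80, KRT81 and KRT86). In the deposited coordinates 7 lie on chromosome 12 and 3 on chromosome 17. KRT18 is the type I gene that lies on chromosome 12, at 52948871 to 52952900 on the plus strand, next to KRT8 at 52897187 to 52949920 on the minus strand. The deposited table names no genome build, but 9 of the 10 start positions are those of GENCODE 29 on GRCh38.

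The mRNA of KRT8 and KRT18 was at a lower level in the raffinose libraries than in the untreated libraries, and so was that of the scarcer KRT7, KRT4, KRT15 and KRT81. For these genes and KRT86, 7 in all, every raffinose library lay below every untreated library, where 10.9% of all 18863 tested genes had groups that did not overlap in this direction, 10.6% in the other and 21.5% in either. For KRT86 the nearest libraries had deposited counts of 39 and 37, less than 1 read pair apart, so its separation rests on the scaling. KRT10 differed little, KRT80 varied widely within both groups, and KRT19 was close to the limit of detection. All 10 genes passed the filter on low counts, and 9 had a negative log2 fold change against 49.0% of all tested genes. Their median log2 fold change of raffinose over untreated was -0.57, while that of all tested genes was 0.01. By edgeR's quasi-likelihood test with Benjamini-Hochberg adjustment over all tested genes, 0 of the 10 passed in either direction, with adjusted p from 0.119 for KRT18 to 0.913 for KRT19. Over all tested genes 0.122% passed, 0.0371% higher and 0.0848% lower. At an unadjusted p under 0.05 the count was 6 lower (KRT8, KRT18, KRT7, KRT4, KRT15 and KRT81) and 0 higher, against 7.08% of all tested genes lower, 6.21% higher and 13.3% in either direction. DESeq2 gave an adjusted p to 9 of the 10, all but KRT19, and called KRT8, KRT18 and KRT7 lower and 0 higher. Of the 15902 genes with such a p it called 2.43% lower, 1.59% higher and 4.02% in either direction. In these bulk libraries fewer cells that express a keratin and less of its RNA per cell cannot be told apart.

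**Figure D1:**
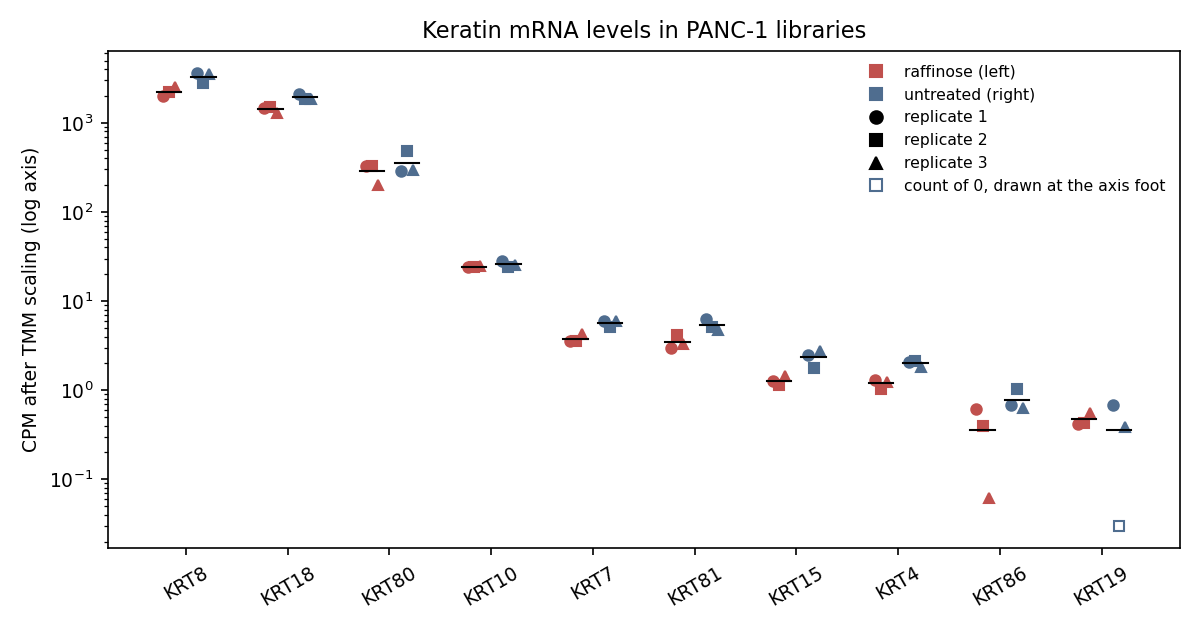
Level of each of the 10 keratin genes in every library, in CPM (counts scaled to a common library size by TMM) on a log axis, raffinose on the left and untreated on the right of each gene; points are libraries and bars are group means. KRT8 and KRT18 lie at 1303 CPM or more in all 6 libraries, KRT80 between 198 and 481 CPM, and KRT19 and KRT86 mostly below 1 CPM.

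KRT8 (ENSG00000170421), the type II keratin of simple epithelium, had 2009, 2216 and 2497 CPM (deposited counts scaled to a common library size by TMM) in raffinose replicates 1, 2 and 3, against 3590, 2793 and 3490 CPM in untreated replicates 1, 2 and 3. The groups did not overlap, and the nearest values were those of raffinose replicate 3 and untreated replicate 2. The means were 2240 ± 245 CPM with raffinose and 3291 ± 434 CPM without (SD, n = 3 each). The log2 fold change was -0.55 (SE 0.12, edgeR adjusted p = 0.1645), which puts the raffinose level at 68.1% of the untreated one.

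KRT18 (ENSG00000111057), the type I partner of KRT8, had 1450, 1495 and 1303 CPM in the raffinose libraries, against 2119, 1838 and 1875 CPM in the untreated libraries. The groups did not overlap here either, and the spread was smaller than for KRT8, with a coefficient of variation of 7.09% in raffinose and 7.86% in untreated libraries. The log2 fold change was -0.46 (SE 0.08, edgeR adjusted p = 0.119), a raffinose level of 72.8% of the untreated one. Within the raffinose group the partners differed in order. Replicate 3 had the highest KRT8 and the lowest KRT18 of that group. Relative to the untreated mean, KRT8 stood at 61.0%, 67.3% and 75.9% and KRT18 at 74.6%, 76.9% and 67.0% in raffinose replicates 1, 2 and 3.

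The deposited KRT8 and KRT18 loci overlap by 1050 bases on opposite strands. Whether counting used the strand is not given in the sources used here, so reads in that stretch cannot be assigned to 1 of the genes. The partners' relative level also depended on how length was taken into account. In FPKM, the authors' value per kilobase, KRT8 over KRT18 was 0.618, 0.661 and 0.855 in raffinose libraries and 0.755, 0.678 and 0.830 in untreated libraries. KRT18 was therefore the higher of the pair in all 6 libraries on that scale. The deposited counts per unit of FPKM were 2.24 times as high for KRT8 as for KRT18, although the longest coding transcript in GENCODE 29 is 1.44 times as long (2437 against 1696 bases). With counts divided by those transcript lengths, KRT8 over KRT18 averaged 1.11 ± 0.197 with raffinose and 1.18 ± 0.119 without (SD, n = 3 each), with a range of 0.964 to 1.33 with raffinose and of 1.06 to 1.3 without. By their means KRT8 was then the higher of the pair in both groups. On both scales the ratios of the groups overlapped.

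**Figure D2:**
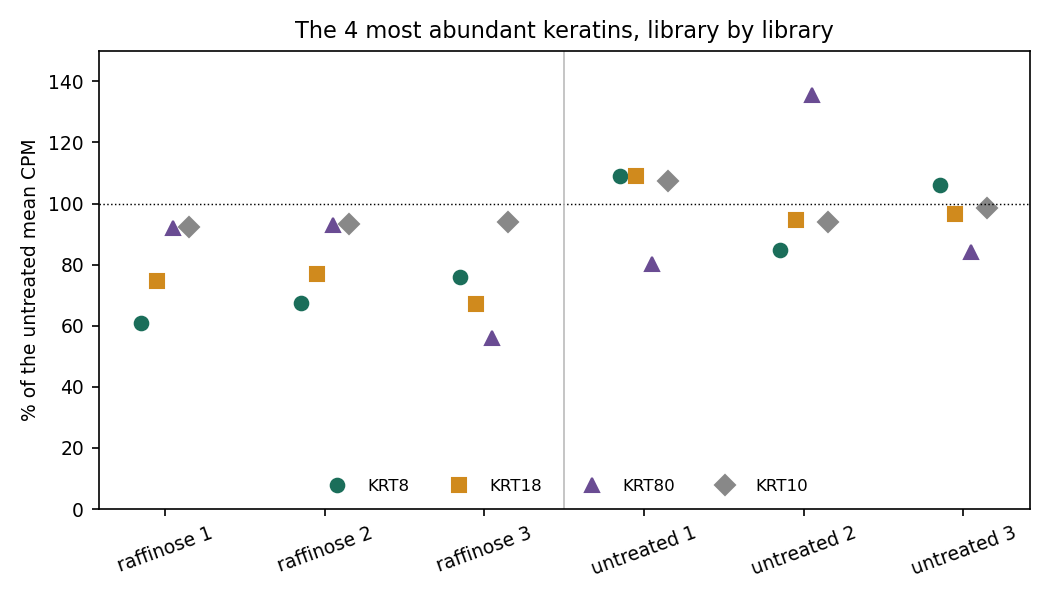
CPM of KRT8, KRT18, KRT80 and KRT10 in each library as a percentage of the gene's untreated mean, raffinose libraries on the left and untreated libraries on the right. KRT8 and KRT18 lie between 61.0% and 76.9% in raffinose libraries, whereas KRT10 lies between 92.3% and 94.0% there and KRT80 stands at 55.9% in raffinose replicate 3 and at 92.0% and 92.8% in the other raffinose libraries.

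KRT7 (ENSG00000135480, chromosome 12, 52232520 to 52252186, plus strand), a type II keratin of ducts and glands, was scarce. It had 3.56, 3.54 and 4.27 CPM with raffinose, against 5.95, 5.13 and 5.93 CPM without. The groups did not overlap, and the log2 fold change was -0.58 (SE 0.14, edgeR adjusted p = 0.199). KRT19 (ENSG00000171345, chromosome 17, 41523617 to 41528308, minus strand) is the type I keratin that commonly marks pancreatic ducts. It had 0.42, 0.43 and 0.56 CPM with raffinose, and 0.69, 0 and 0.39 CPM without. These are deposited counts of 27, 27 and 36 in raffinose libraries and of 44, 0 and 23 in untreated libraries. One read pair seems to add 4 to the deposited value, so a count of 27 stands for about 7 pairs. The count of 0 in untreated replicate 2 allows a level of up to 0.186 CPM (3 read pairs, or 12 deposited units, for counting error only). The KRT19 log2 fold change of 0.39 (SE 1.08) turned to -0.20 without that library. As ductal keratins, KRT7 and KRT19 were thus far below KRT8 and KRT18 in these cells, at 0.789 ± 0.0965 and 0.158 ± 0.0275 FPKM with raffinose and 1.16 ± 0.0821 and 0.119 ± 0.114 FPKM without (SD, n = 3 each).

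Among keratins of stratified epithelium, KRT4 (ENSG00000170477, chromosome 12, 52806549 to 52814116, minus strand) is a type II keratin of mucosal surfaces such as the oesophagus. KRT4 had 1.296, 1.043 and 1.227 CPM in raffinose libraries, against 2.06, 2.12 and 1.81 CPM in untreated libraries. KRT15 (ENSG00000171346, chromosome 17, 41513745 to 41522529, minus strand) is a type I keratin of basal keratinocytes. KRT15 had 1.27, 1.14 and 1.45 CPM in raffinose libraries, against 2.48, 1.78 and 2.72 CPM in untreated libraries. Neither gene's groups overlapped. Their log2 fold changes were -0.75 (SE 0.19, edgeR adjusted p = 0.199) for KRT4 and -0.86 (SE 0.225, edgeR adjusted p = 0.211) for KRT15. Both were detected with deposited counts of 66 to 161 per library, so few read pairs lie behind each value.

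KRT10 (ENSG00000186395, chromosome 17, 40818117 to 40822614, minus strand), a type I keratin of the differentiating epidermis, followed KRT18, KRT8 and KRT80 in abundance. It had 24.0, 24.2 and 24.4 CPM with raffinose, against 27.9, 24.4 and 25.7 CPM without. The groups overlapped, since raffinose replicate 3 and untreated replicate 2 both lay at 24.4 CPM, and the raffinose libraries were close to each other, with a coefficient of variation of 0.918%. The log2 fold change was -0.10 (SE 0.08, edgeR adjusted p = 0.640). The deposited KRT10 locus overlaps TMEM99 on the opposite strand by 3509 bases, and TMEM99 averaged 7.89 CPM with raffinose and 13.1 CPM without. The part of this overlap in the KRT10 values was not tested.

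KRT80 (ENSG00000167767, chromosome 12, 52168996 to 52192014, minus strand), a type II keratin found in many epithelia, was the most abundant of the 10 genes after KRT8 and KRT18. It had 326.5, 329.4 and 198.4 CPM in raffinose replicates 1, 2 and 3, against 285, 481 and 299 CPM in untreated replicates 1, 2 and 3. Untreated replicate 2 stood highest and raffinose replicate 3 lowest, and the other 4 libraries of both groups lay between 285 and 329 CPM. The log2 fold change of -0.32 (SE 0.27, edgeR adjusted p = 0.671) became -0.03 without untreated replicate 2 and -0.46 without untreated replicate 1. Without raffinose replicate 3 it was -0.11. Untreated replicate 2 was also the untreated library with the lowest KRT8.

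KRT81 (ENSG00000205426, chromosome 12, 52285913 to 52291534, minus strand) and KRT86 (ENSG00000170442, chromosome 12, 52249300 to 52309163, plus strand) are type II keratins of the hair cortex. KRT81 had 3.00, 4.12 and 3.33 CPM with raffinose, against 6.29, 5.12 and 4.73 CPM without, and the groups did not overlap (log2 fold change -0.63, SE 0.18, edgeR adjusted p = 0.251). KRT86 had 0.61, 0.40 and 0.06 CPM with raffinose, against 0.69, 1.02 and 0.63 CPM without. In raffinose replicate 3 its deposited count was 4, about 1 read pair, and the log2 fold change of -1.13 (SE 0.71) became -0.63 without that library and -1.76 without raffinose replicate 1. The coding transcripts of this pair share sequence. Of the 150-base windows along the longest KRT81 coding transcript, 25.6% occur exactly in a KRT86 transcript, as do 22.1% of the KRT86 windows in KRT81. Read pairs in those stretches cannot be assigned to either gene with certainty, and the deposited KRT86 locus also spans the whole of KRT81 on the opposite strand and overlaps KRT7 by 2887 bases on the same strand. With the counts of KRT81, KRT83 and KRT86 summed, the log2 fold change was -0.62 (edgeR adjusted p = 0.199). None of the 150-base windows of the other 8 keratins occurred in another keratin gene or keratin pseudogene of GENCODE 29.

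**Figure D3:**
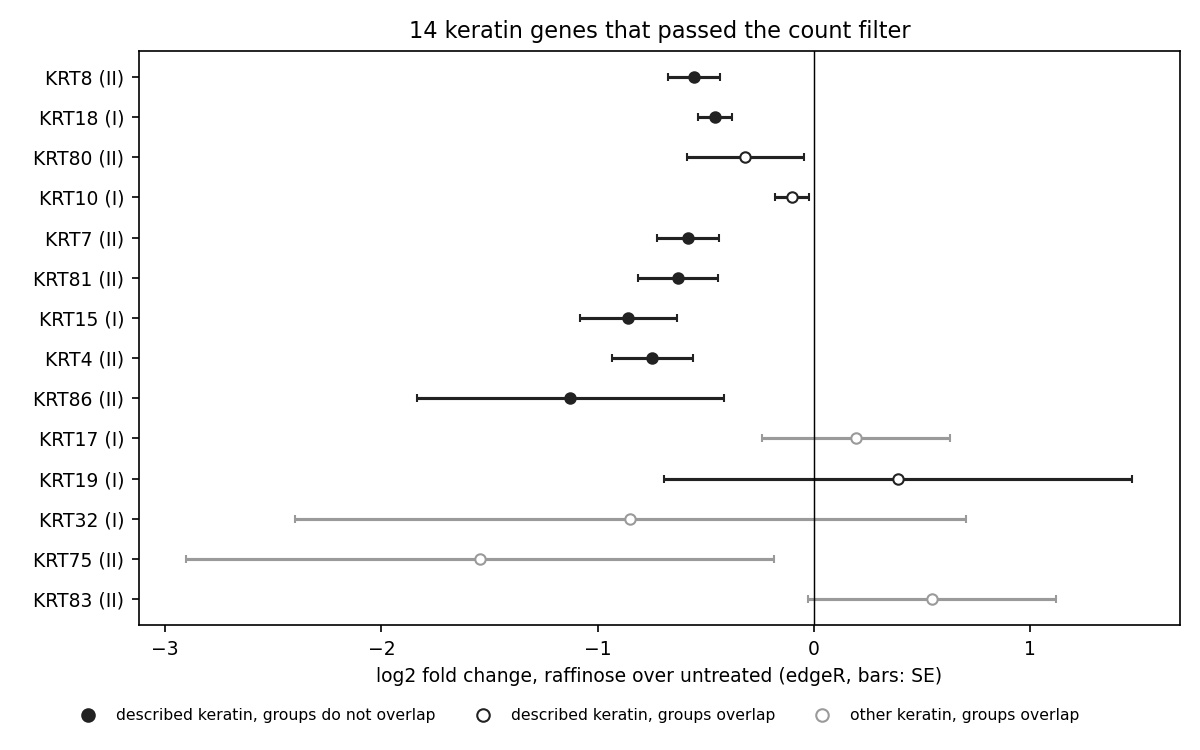
Log2 fold change of raffinose over untreated with its standard error for the 14 keratin genes that passed the count filter, ordered from high to low untreated CPM, with the keratin type in parentheses. The 7 filled points are genes whose groups do not overlap, with values from -1.13 for KRT86 to -0.46 for KRT18.

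Ordered by mean FPKM, KRT18 stood first, at 389 ± 22 FPKM with raffinose and 521 ± 31.1 FPKM without (SD, n = 3 each). KRT8 followed at 275 ± 33.2 FPKM with raffinose and 393 ± 47.2 FPKM without, and KRT80 at 55.0 ± 13.8 FPKM with raffinose and 67.1 ± 21.7 FPKM without. KRT10 was the next, at 9.45 ± 0.203 FPKM with raffinose and 9.88 ± 0.491 FPKM without, some way below KRT80 in both groups. KRT81 came next at 1.52 ± 0.237 FPKM with raffinose and 2.29 ± 0.307 FPKM without. Below it stood KRT7, KRT4 and KRT15, in that order in both groups. From KRT18 down to KRT15 no neighbours in this order overlapped in FPKM in either group. Neighbours among the last 3, KRT15, KRT19 and KRT86, overlapped and cannot be ordered beyond their spread. The order of KRT18 and KRT8 turned with the length used, as given above. So did that of KRT81 and KRT7. The deposited counts per unit of FPKM averaged 307 for KRT7 and 147 for KRT81. The longest coding transcript of KRT7 is however the shorter (1754 against 1929 bases). Mean CPM was higher for KRT7, at 3.79 against 3.48 with raffinose and 5.67 against 5.38 without. With counts divided by those lengths, KRT7 was thus the higher by its means in both groups.

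Of the 54 keratin genes of the human family, all in the table, 28 had a count of 0 in every library and 26 were counted in at least 1. Among the 44 keratins outside the 10, 4 passed the filter, KRT17, KRT83, KRT32 and KRT75, and 0 passed the edgeR test over all genes. They also had 0 genes at an unadjusted p under 0.05, and DESeq2 gave none of the 4 an adjusted p. KRT17, a type I keratin of basal and activated keratinocytes, was at 0.428 ± 0.1455 CPM with raffinose and 0.374 ± 0.109 CPM without (log2 fold change 0.19, SE 0.43, edgeR adjusted p = 0.886). The hair keratins KRT83 and KRT32 had log2 fold changes of 0.54 (SE 0.57) and -0.85 (SE 1.55), and KRT75, a keratin of the hair follicle, had one of -1.54 (SE 1.36). All 4 stood below 1 CPM in every library, and the groups overlapped for each of them. The usual partners of KRT10 and KRT4, KRT1 and KRT13, did not pass the filter, with a count of 0 for KRT1 in all libraries and a single count of 3 for KRT13, in raffinose replicate 1.

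KRT8 and KRT18 together made up 90.7 ± 1.81% of all keratin FPKM with raffinose and 91.7 ± 2.55% without (SD, n = 3 each), and KRT80 made up 7.501 ± 1.865% with raffinose and 6.815 ± 2.55% without. The summed type II FPKM was 312, 334 and 353 in raffinose libraries, against 477.9, 435 and 481 in untreated libraries. The summed type I FPKM was 408, 415 and 375 in raffinose libraries, against 568, 510 and 517 in untreated libraries. Neither sum overlapped between the groups, and both are sums over the chosen genes in the main, so no test is given. The ratio of type II to type I was 0.764, 0.805 and 0.943 with raffinose and 0.841, 0.854 and 0.931 without. It ranged more widely with raffinose and overlapped between the groups. All keratins together took 0.402 ± 0.0142% of the deposited counts with raffinose and 0.556 ± 0.03655% without.

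KRT8 and KRT18 have many processed pseudogenes, 51 and 67 by name in the table. Those of KRT8 held 1.96% and those of KRT18 0.292% as many counts as the gene itself. Of the 12 KRT8 pseudogenes that passed the filter all had a negative log2 fold change, with a median of -0.44, and 5 had groups that did not overlap, all lower, against 49.0% negative and 10.9% not overlapping in this direction among all tested genes. Of the 9 KRT18 pseudogenes 8 were negative, with a median of -0.52, and 4 had groups that did not overlap, all lower, beside the same 49.0% and 10.9%. By edgeR 0 of these 21 passed. KRT8P3, the KRT8 pseudogene with the most counts, was at 17.1 CPM with raffinose and 22.8 CPM without. Whether these copies hold reads of the parent genes was not tested. Summing them into the parents gave -0.55 for KRT8 and -0.46 for KRT18, the values without the sum to 2 decimals.

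Promoter sequences were available here for KRT8, KRT4 and KRT10, from RefSeq on GRCh38.p14, as 300 bases from 250 before to 50 after the annotated start. KRT18, KRT7, KRT19, KRT15, KRT80, KRT81 and KRT86 were not matched. Every promoter that was available is shown, whatever the gene's difference between the groups. Capitals mark the motifs searched for on both strands, the TATA box TATAA, the GC box GGGCGG, the AP-1 motif TGANTCA and the CCAAT box, which is read here on the opposite strand as ATTGG. The regions are chr12:52926420-52926719 for KRT8, chr12:52814067-52814366 for KRT4 and chr17:40822565-40822864 for KRT10, all on the minus strand and written 5′ to 3′.
KRT8: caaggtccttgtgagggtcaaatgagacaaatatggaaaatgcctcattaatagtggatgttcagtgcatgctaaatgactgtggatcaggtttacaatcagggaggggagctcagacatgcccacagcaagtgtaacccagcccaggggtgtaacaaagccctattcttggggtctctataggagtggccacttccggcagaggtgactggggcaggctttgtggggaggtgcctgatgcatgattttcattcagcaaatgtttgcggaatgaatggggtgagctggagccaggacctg
KRT4: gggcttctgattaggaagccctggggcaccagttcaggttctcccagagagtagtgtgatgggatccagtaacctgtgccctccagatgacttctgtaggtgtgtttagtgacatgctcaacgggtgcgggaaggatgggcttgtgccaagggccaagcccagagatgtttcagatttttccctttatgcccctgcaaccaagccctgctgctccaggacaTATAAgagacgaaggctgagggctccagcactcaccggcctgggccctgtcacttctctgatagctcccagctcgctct
KRT10: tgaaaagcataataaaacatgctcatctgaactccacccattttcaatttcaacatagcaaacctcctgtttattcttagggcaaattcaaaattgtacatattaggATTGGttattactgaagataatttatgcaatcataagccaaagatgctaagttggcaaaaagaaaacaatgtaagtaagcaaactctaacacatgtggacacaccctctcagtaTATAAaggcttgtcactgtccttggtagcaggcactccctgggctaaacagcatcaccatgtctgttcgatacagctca

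KRT4 and KRT10 each held a TATA box that began 29 bases before the annotated start, a motif found in 20.4% of the 35116 promoters of this length. KRT10 also held a CCAAT box, found in 34.6% of promoters. None of the 3 windows held a GC box (45.0% of promoters) or an AP-1 motif (7.71%), and the KRT8 window held none of the 4 motifs. The KRT8 window lies inside the deposited KRT8 locus, which runs from 52897187 to 52949920 on the minus strand, and not at its 5′ end. The KRT4 and KRT10 windows span the 5′ ends of their deposited loci, at 52814116 and 40822614. The absence of motifs thus describes that KRT8 window and not the sequence before the deposited KRT8 start. Which start PANC-1 uses cannot be read from gene counts. A match is a description of letters and not a site.

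Genes of the wider keratin network were read from 5 lists chosen with earlier results of these data known. Over all genes edgeR called 0 genes in each list, and the counts at an unadjusted p under 0.05 and by DESeq2 follow. Among the 10 tested of 16 other intermediate filament genes, 6 were positive and 4 negative, with a median log2 fold change of 0.10. At an unadjusted p under 0.05 there were 2 higher and 2 lower, where all tested genes had 6.21% higher and 7.08% lower, and DESeq2 called 0 of the 9 with an adjusted p. VIM, the mesenchymal filament protein that PANC-1 cells carry beside keratins, had 4412, 4630 and 4261 CPM with raffinose, against 5537, 5342 and 4614 CPM without. Raffinose replicate 2 lay just above untreated replicate 3, so the groups overlapped (log2 fold change -0.22, SE 0.08, edgeR adjusted p = 0.3065). The nuclear lamin gene LMNB2 had a log2 fold change of -0.19 (SE 0.05, edgeR adjusted p = 0.226) and LMNA one of -0.16 (SE 0.09, edgeR adjusted p = 0.503). The filament genes NES (0.43, SE 0.17) and SYNM (0.19, SE 0.08) had groups that did not overlap, with raffinose above untreated. LMNB2 and the lens filament gene BFSP1 (-0.24, SE 0.10) had groups that did not overlap with raffinose below untreated. Among all tested genes 10.6% were separated upward and 10.9% downward.

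The plakins and other anchors that tie keratins to desmosomes and hemidesmosomes had 8 positive and 8 negative members of 16 tested, with a median of 0.01. At an unadjusted p under 0.05, 2 were lower and 0 higher, beside 7.08% and 6.21% of all tested genes. DESeq2 called 2 lower of the 15 with an adjusted p, PKP3 and ITGB4, beside 2.43% of all genes with one. The desmosomal plaque gene PKP3 was at 35.8 ± 2.41 CPM with raffinose and 51.4 ± 2.46 CPM without, with groups that did not overlap (log2 fold change -0.52, SE 0.08, edgeR adjusted p = 0.1002). Among all tested genes 10.9% were separated in this direction. ITGB4, the hemidesmosomal integrin that binds plectin, was at 60.7 ± 1.91 CPM with raffinose and 74.4 ± 5.09 CPM without (log2 fold change -0.29, SE 0.07, edgeR adjusted p = 0.198). Its partner ITGA6 had 179, 355 and 355 CPM with raffinose, against 181, 228 and 222 CPM without, so that raffinose replicate 1 lay with the untreated libraries. Desmoplakin (DSP), which binds keratins at desmosomes, was at 210 ± 20.3 CPM with raffinose and 205 ± 25.4 CPM without, and plectin (PLEC) at 595 ± 25.5 CPM with raffinose and 641 ± 63.7 CPM without (SD, n = 3 each).

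Of 12 keratin-binding regulators, 9 were negative and 3 positive, with a median of -0.10. SFN, the 14-3-3 protein sigma that binds keratins in epithelial cells, had 127.8, 135.5 and 122.4 CPM with raffinose, against 171.2, 158.8 and 161.5 CPM without. The groups did not overlap, as for 10.9% of all tested genes in this direction (log2 fold change -0.35, SE 0.06, edgeR adjusted p = 0.136). SFN was the 1 gene of this list with an unadjusted p under 0.05 (7.08% of all tested genes were lower) and the 1 that DESeq2 called (2.43%). The small heat shock protein gene HSPB1 had a log2 fold change of -0.23 (SE 0.12). Of the 12 tested epithelial transcription factors and splicing regulators, 6 were positive and 6 negative, with a median of -0.00. At an unadjusted p under 0.05, 2 were lower and 0 higher, beside 7.08% and 6.21% of all tested genes, and DESeq2 called 0 of the 11 with an adjusted p. The factors TFAP2C (log2 fold change -0.24, SE 0.07) and SOX9 (-0.22, SE 0.07) had groups that did not overlap, beside the same 10.9% of all tested genes. TFAP2A had a log2 fold change of -0.36 (SE 0.18). Of 19 cornified envelope and squamous genes 4 passed the filter, 2 positive and 2 negative, with 0 at an unadjusted p under 0.05. DESeq2 gave 2 of the 4 an adjusted p and called 0. The most abundant of them, S100A2, was at 3.41 ± 0.338 CPM with raffinose and 2.82 ± 0.596 CPM without. TRIM29 and CSTA stood below 1 CPM in all 6 libraries.

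**Figure D4:**
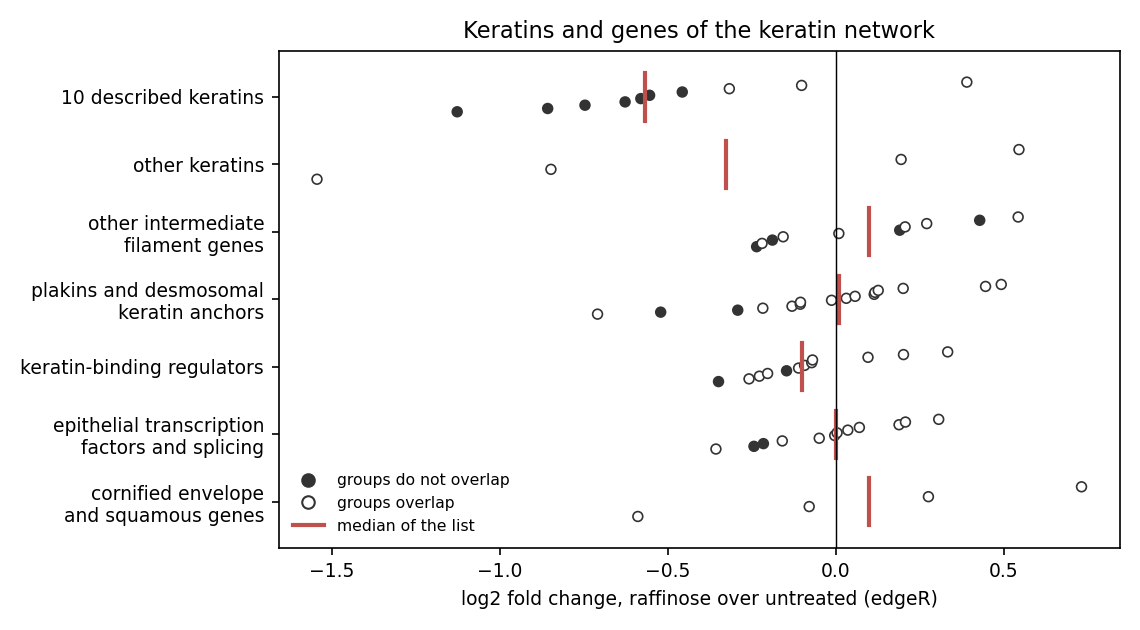
Log2 fold change of raffinose over untreated for the 10 keratins described, the 4 other tested keratins and the tested genes of 5 keratin network lists; each point is a gene, filled where the groups do not overlap, and the red bar is the list's median. The median of the 10 keratins is -0.57, while those of the 5 network lists lie between -0.10 and 0.10.

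The genes whose pattern over the 6 libraries was most like the mean of KRT8 and KRT18, by Pearson correlation of log2 CPM among 9878 genes of at least 10 CPM, were G6PC3 (r = 0.995), CCDC106 (0.991), C15orf48 (0.991) and MRPS18B (0.990). These correlations describe 6 libraries that fall into the groups compared, and 4.82% of the genes ranked had one above 0.9. MRPS18B, a mitochondrial ribosomal protein gene, was at 80.3 ± 1.37 CPM with raffinose and 108 ± 6.86 CPM without, and CCDC106 at 54.3 ± 0.657 CPM with raffinose and 74.0 ± 5.07 CPM without (SD, n = 3 each). None of these 4 genes passed by edgeR, with adjusted p from 0.1002 to 0.231.

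The labelled cell type was read against its markers. Of 9 pancreatic duct markers 3 reached a mean of 1 CPM, the keratin KRT7, the transcription factor SOX9 and the mucin MUC1. The summed level of all 9 was 63.0 to 65.6 CPM in raffinose libraries and 72.3 to 81.8 CPM in untreated libraries. That was mostly SOX9, at 53.6 ± 1.17 CPM with raffinose and 62.3 ± 3.63 CPM without (SD, n = 3 each). Of the 7 tested duct markers 4 were negative and 3 positive, where 49.0% of all tested genes were negative. The 4 negative ones, KRT7, SOX9, MUC1 and the scarce SPP1, had groups that did not overlap, beside 10.9% of all tested genes in this direction. At an unadjusted p under 0.05, 3 were lower and 0 higher, beside 7.08% and 6.21%. DESeq2 called 1 lower of the 5 with an adjusted p, KRT7, beside 2.43%. The 3 positive ones, KRT19, CA2 and EPCAM, stood below 1 CPM in all 6 libraries, and their groups overlapped. Keratinocyte markers summed to at most 0.379 CPM in any raffinose library and 0.279 CPM in any untreated one, with 4 of 7 at 0 in every library. Leukocyte markers summed to 18.04 to 24.85 CPM with raffinose and 33.8 to 42.2 CPM without. That was almost all CD68, at 21.1 ± 3.82 CPM with raffinose and 36.8 ± 4.11 CPM without, a lysosomal gene that other cells express too, while CD3E was at 0. Fibroblast markers summed to 368 to 381 CPM with raffinose and 409 to 433 CPM without. That was mostly COL3A1, at 331 ± 9.23 CPM with raffinose and 386 ± 10.8 CPM without, a gene that DESeq2 called lower (adjusted p = 0.0372) and edgeR did not (adjusted p = 0.178). COL1A1 ran the other way without overlap, at 40.2 ± 2.13 CPM with raffinose and 34.1 ± 0.385 CPM without (SD, n = 3 each). Endocrine markers summed to 22.9 to 23.2 CPM with raffinose and 21.6 to 26.1 CPM without. Acinar and endothelial markers summed to less than 1 CPM in every library. The part of these markers in the keratin values was not tested.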

How the data were processed

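The authors deposited a table with an estimated count and an FPKM value per gene and library, per the file headers. Counts of 0 stand beside 0.0001 FPKM. Of tools, StringTie 1.3.4d, HISAT2 2.0.4, cutadapt 1.9, DESeq2 and edgeR are named, with no role, in the submitters' processing notes. A genome build, an annotation and a strand setting were not given in the sources used here. In raffinose replicate 1, 1382 genes had a count of 4 but 456 a count of 3 and 286 a count of 5, so 1 read pair seems to add 4 and counts overstate fragments.

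The deposited counts were rounded and tested with edgeR 4.0.16 in R 4.3.3: filterByExpr with a minimum count of 10 (18863 genes kept), TMM, glmQLFit and glmQLFTest, Benjamini-Hochberg adjustment, called under 0.05. SEs were derived from this test, as the absolute log2 fold change divided by the square root of its F statistic. CPM values are after TMM. FPKM was used for levels between genes. DESeq2 1.42.0 and limma 3.58.1 on log2(FPKM + 0.1) and log2(FPKM + 1) were among the alternatives. The fits were tested on simulated data. The named genes are the 10 keratins, all other tested keratins, up to 3 genes of smallest p per list, VIM, LMNA, PLEC and DSP, and the 5 genes most like KRT8 and KRT18, where log2(CPM + 0.01) was correlated. Some genes that this rule names are not reported here. Values named beyond that rule (SYNM, BFSP1, EPCAM, MUC1, SPP1, CA2, CD3E, TMEM99, KRT8P3, EIF4B, TNS2, ATG101, LINC00592, AC121757, KRT1 and KRT13) were chosen after they were seen. The 10 keratins and all lists were chosen with earlier results of these data known.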

Additional observations from a re-analysis of the deposited data

How the results depend on the processing

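Among the alternatives for the 10 keratins, the direction turned for KRT19 without untreated replicate 2 (log2 fold change -0.196, up to 1.27 without untreated replicate 1). The same 6 genes, KRT8, KRT18, KRT7, KRT4, KRT15 and KRT81, had an unadjusted p under 0.05 in 14 of 14 alternatives that left all of them in the test. These alternatives reuse the same libraries and chosen genes, so they are no independent repeats. Over all genes the lowest share at this limit was 2700 of 30324, with no filter on low counts. The highest was 2353 of 15212, with counts divided by 4. With a filter at mean FPKM 1 it was 4 of the 6 keratins tested, beside 2006 of all 12012 genes tested. In each edgeR alternative 0 of the described keratins left in the test were called. Of the 10, the filter at mean FPKM 1 left 6 and counts divided by 4 left 9. DESeq2 called 3 lower, with adjusted p of 0.00136 for KRT18, 0.00633 for KRT8 and 0.0322 for KRT7. With a library left out, the log2 fold change ranged from -0.66 to -0.481 for KRT8 and from -0.498 to -0.392 for KRT18. The median of the 10 was -0.245 with limma on log2(FPKM + 1), where the pseudocount compresses the scarce keratins. The type II over type I ratio was 1.77 with raffinose and 1.86 without from counts instead of FPKM, since counts are not divided by length.

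Over all genes, against 7 higher and 16 lower, DESeq2 called 253 and 386, the filter at mean FPKM 1 gave 15 and 27, limma on log2(FPKM + 0.1) 11 higher, and counts divided by 4 gave 11 higher. Leaving out a library gave 0 to 15 higher and 4 to 13 lower. That was 3 and 8 without raffinose replicate 2, 15 and 8 without untreated replicate 1, 12 and 8 without untreated replicate 2, and 0 and 4 without untreated replicate 3, where edgeR left 1969 genes at an unadjusted p under 0.05. The causes were not tested. DESeq2 called 3 genes of the network lists (PKP3, ITGB4 and SFN). With the replicate number as a replicate block 0 higher and 0 lower were called, with 1932 genes at an unadjusted p under 0.05. Libraries of the same number had deviations from their group means correlated at -0.012, -0.071 and 0.021. No comparison was made with libraries of unlike number, and whether those of the same number shared a culture or batch was not tested. The median of the 8 keratins of at least 1 CPM, an alternative chosen after seeing the data, was -0.568. Depth limits KRT19 and KRT86, whose values rest on few read pairs.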

Other observations

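EIF4B, a translation initiation factor gene and the nearest tested gene outside the keratin family beyond KRT18 on chromosome 12, differed in the other direction from KRT8 and KRT18. It was at 580 ± 73.7 CPM with raffinose and 387 ± 42.3 CPM without (SD, n = 3 each), with groups that did not overlap. Among all tested genes 10.6% were separated in this direction and 10.9% in the other. Its log2 fold change was 0.59 (SE 0.12, edgeR adjusted p = 0.151), and it did not pass the test. TNS2, a tensin gene further along on the same side, had 7.26 ± 0.544 CPM with raffinose and 6.12 ± 0.523 CPM without, and its groups overlapped. On the KRT8 side the nearest tested genes outside the family lay 590900 bases or more away. Of these, ATG101 had a log2 fold change of -0.11 (SE 0.06), with every raffinose library below every untreated one. LINC00592 (0.47, SE 0.33) and AC121757 (-0.97, SE 1.06) stood below 1 CPM in every library, and their groups overlapped.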
